A study of Mus musculus with 12 samples.

Results

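The genes described here are the kinesins, the motor proteins that move along microtubules, and the centromere proteins, together with 10 mitotic regulators, in a mouse erythroid cell line. They were chosen by name: all genes of the deposited tables whose symbol begins with Kif and a digit or with Cenp and a letter, plus Aurka, Aurkb, Plk1, Bub1, Bub1b, Ndc80, Nuf2, Ccnb1, Ccnb2 and Cdk1. This took in 69 of 32699 genes, of which 40 had Kif names, 19 had Cenp names and 10 were named singly. Taken by name, the set also holds Kif1bp, a kinesin binding protein that is no motor, the antisense RNA Kif16bos and the pseudogene Kif4-ps. The RNA came from G1E-ER4 cells, a line grown from mouse embryonic stem cells without Gata1, to which GATA-1 fused to the ligand-binding part of the estrogen receptor was given back. The 4 groups of 3 libraries were TMG_E2 cells, given 10 µM Thiamet-G (TMG) and 1 µM β-estradiol (E2) for 30 h, E2 cells, given 1 µM E2 alone, TMG cells, given 10 µM TMG alone, and untreated Ctrl cells. E2 switches the fusion protein on and starts red cell differentiation, and TMG inhibits OGA, the enzyme that takes the sugar mark O-GlcNAc off proteins. All groups carried the fusion and were grown with erythropoietin, stem cell factor and puromycin. No group without the fusion was given E2, the labels name no vehicle for the Ctrl cells, and all libraries came from a single line, so that other effects of E2 and peculiarities of the line cannot be told apart from differentiation.

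Centromeres are marked by a histone H3 variant, CENP-A, on which a constitutive network of proteins sits through the cell cycle. At mitosis the outer kinetochore is built on this network and holds the microtubules of the spindle. Cyclin B with Cdk1 drives entry into mitosis, the Aurora and Polo kinases direct the spindle and its attachments, and the Bub proteins hold the cell back until all chromosomes are attached. Mitotic kinesins push the spindle poles apart, move chromosomes and help to split the cell, while transport kinesins carry vesicles, organelles and RNA in cells at any stage. Erythroblasts divide a limited number of times as they mature, and mammalian red cells lose the nucleus after the last division.

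The libraries held 17589380 to 23178721 expected counts, at which 3 counts equal 0.133 to 0.180 CPM, counts scaled to an equal library total, and 8273 genes passed a filter of more than 10 CPM in at least 2 of 12 libraries. CPM values are scaled by TMM, which allows for differences in library composition, and changes are log2 fold changes ± SE from edgeR's quasi-likelihood test. Benjamini-Hochberg adjustment covered all 8273 genes, and a gene was called at an adjusted p under 0.05. The sources do not say whether the 3 libraries of a group were separate cultures; the p-values therefore cover only library-to-library spread, possibly of a technical kind. The labels call the cells embryonic stem cells, but 4 of 6 embryonic stem cell markers (Pou5f1, Sox2, Zfp42 and Dppa5a) were at 0 in all libraries and the highest value of the list was 0.281 CPM, for Nanog. The 9 erythroid markers summed to 41673 to 47522 CPM in TMG_E2 cells, 41074 to 44213 CPM in E2 cells, 1751 to 1849 CPM in TMG cells and 1544 to 1578 CPM in Ctrl cells. Summed markers of several other blood cells were lower with E2. The 6 mast cell markers summed to 0.321 to 0.599 CPM in TMG_E2 cells, 0.280 to 0.910 CPM in E2 cells, 77.5 to 93.9 CPM in TMG cells and 76.8 to 100.4 CPM in Ctrl cells, with Mcpt4 and Tpsb2 at 0 in all libraries. The 6 megakaryocyte markers summed to 37.7 to 43.8 CPM in TMG_E2 cells, 37.2 to 39.7 CPM in E2 cells, 75.1 to 90.1 CPM in TMG cells and 80.0 to 90.7 CPM in Ctrl cells, with Gp1bb and Ppbp at 0. That sum was mostly Nbeal2, with 24.2, 29.4 and 22.8 CPM in TMG_E2 cells, 26.7, 22.7 and 28.6 CPM in E2 cells, 65.4, 67.3 and 79.6 CPM in TMG cells and 80.2, 73.2 and 81.2 CPM in Ctrl cells. Gp9 was higher with E2, at a mean of 7.76 CPM in TMG_E2 cells and 6.17 CPM in E2 cells, against 1.35 CPM in TMG cells and 0.809 CPM in Ctrl cells, and Itga2b was at 5.93 CPM in E2 cells and 5.97 CPM in Ctrl cells. The 7 granulocyte markers summed to 2.42 to 3.29 CPM in TMG_E2 cells, 1.57 to 2.01 CPM in E2 cells, 20.0 to 23.3 CPM in TMG cells and 16.3 to 21.3 CPM in Ctrl cells, with 5 of 7 at 0. That sum was almost wholly a single gene, Coro1a, with 1.97, 1.96 and 1.57 CPM in E2 cells and 21.3, 16.3 and 20.6 CPM in Ctrl cells. Mpo was at 0.0467 CPM in E2 replicate 2 and at 0 elsewhere. The macrophage markers stayed at or under 2.27 CPM. The 5 lymphoid markers summed to 0 to 0.214 CPM in TMG_E2 cells, 0.0935 to 0.281 CPM in E2 cells, 0.664 to 1.22 CPM in TMG cells and 0.711 to 0.849 CPM in Ctrl cells, with Cd3e and Ms4a1 at 0. The part of these other markers in the results with E2 was not tested.

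Of the 69 genes, 52 passed the filter: all 19 Cenp genes, all 10 regulators and 23 of the 40 Kif genes. All 52 passed it in the libraries with E2 and in those without E2 taken separately, so none was tested only because of the group in which it was high. The other 17 stayed under 5 CPM, and 10 of them had 0 counts in all 12 libraries, among them the neuronal motor Kif1a. The highest of the 17 was Kif9, a motile cilium kinesin, with 3.0, 3.15 and 1.68 CPM in TMG_E2 cells, 4.39, 4.63 and 3.03 CPM in E2 cells, 0.996, 0.766 and 0.896 CPM in TMG cells and 0.994, 1.32 and 0.845 CPM in Ctrl cells. Kif17 and Kif3c, both of the kinesin-2 family, reached 3.22 and 1.04 CPM in their highest libraries. Levels of different genes can be compared only per transcript length, on the deposited TPM scale. In Ctrl cells Ccnb1 led the tested genes with 233 ± 1.91 TPM (SD, n = 3), followed by Bub1b (130.0 ± 1.37 TPM), Aurkb (115 ± 1.61 TPM), Cenpv (108 ± 2.41 TPM) and Cenpa (108 ± 2.62 TPM). Cenpv and Cenpa did not differ beyond their spread in that order. The lowest was Kif13b, a transport kinesin, with 3.80 ± 0.0436 TPM. In E2 cells Ccnb1 led again with 284 ± 10.2 TPM, now followed by Cenpa (132 ± 4.54 TPM), Aurka (116 ± 5.34 TPM) and Kif22 (105 ± 4.53 TPM), while Bub1b stood in place 10 with 69.0 ± 3.59 TPM.

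The comparison of E2 with Ctrl cells gives the change with E2 in the absence of TMG. Most of the mitotic and centromere genes were moderately higher in E2 cells than in Ctrl cells, and most transport kinesins were lower. Of 52 genes tested, 32 rose, 13 fell and 7 were not called, so that 61.5% rose, where 41.5% of all genes tested rose and 41.2% fell. A call was made for 86.5% of these genes and for 82.7% of all genes tested, so the share called lay near the background. The median log2 fold change was 0.30, against -0.00076 over all genes. Changes stayed within 2-fold for all 52 genes, whereas 17.3% of all genes changed more than 2-fold. More than 1.5-fold higher were 14 genes and more than 1.5-fold lower 5 (36.5%, against 36.2% of all genes). The median absolute log2 fold change was 0.486, against 0.412 over all genes. In bulk RNA, a change in the share of cells in mitosis and a change of RNA per cell cannot be told apart. By role, the regulators and centromere proteins were mostly higher: 3 of 5 mitotic and checkpoint kinases, both B cyclins, both outer kinetochore genes, 11 of 15 constitutive centromere genes and 3 of 4 other Cenp genes rose. Of 11 mitotic kinesins 7 rose and 1 fell, while of 8 transport kinesins tested 2 rose and 5 fell. Summed over the 69 genes, the level was 4861 to 5181 CPM in TMG_E2 cells, 4742 to 4954 CPM in E2 cells, 4176 to 4244 CPM in TMG cells and 4103 to 4114 CPM in Ctrl cells, and no library with E2 overlapped one without it. Scaled by library size alone, the median change of all genes was -0.10 and 27 members rose and 16 fell. Of the calls over all genes 50.2% were higher by TMM and 42.1% by library size alone. Under that scaling the calls of Cenpi, Cenpm, Kif11, Kif15 and Kif20b were lost, Cdk1, Cenpu and Kif2c were called lower, and no called gene changed direction.

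**Figure D1:**
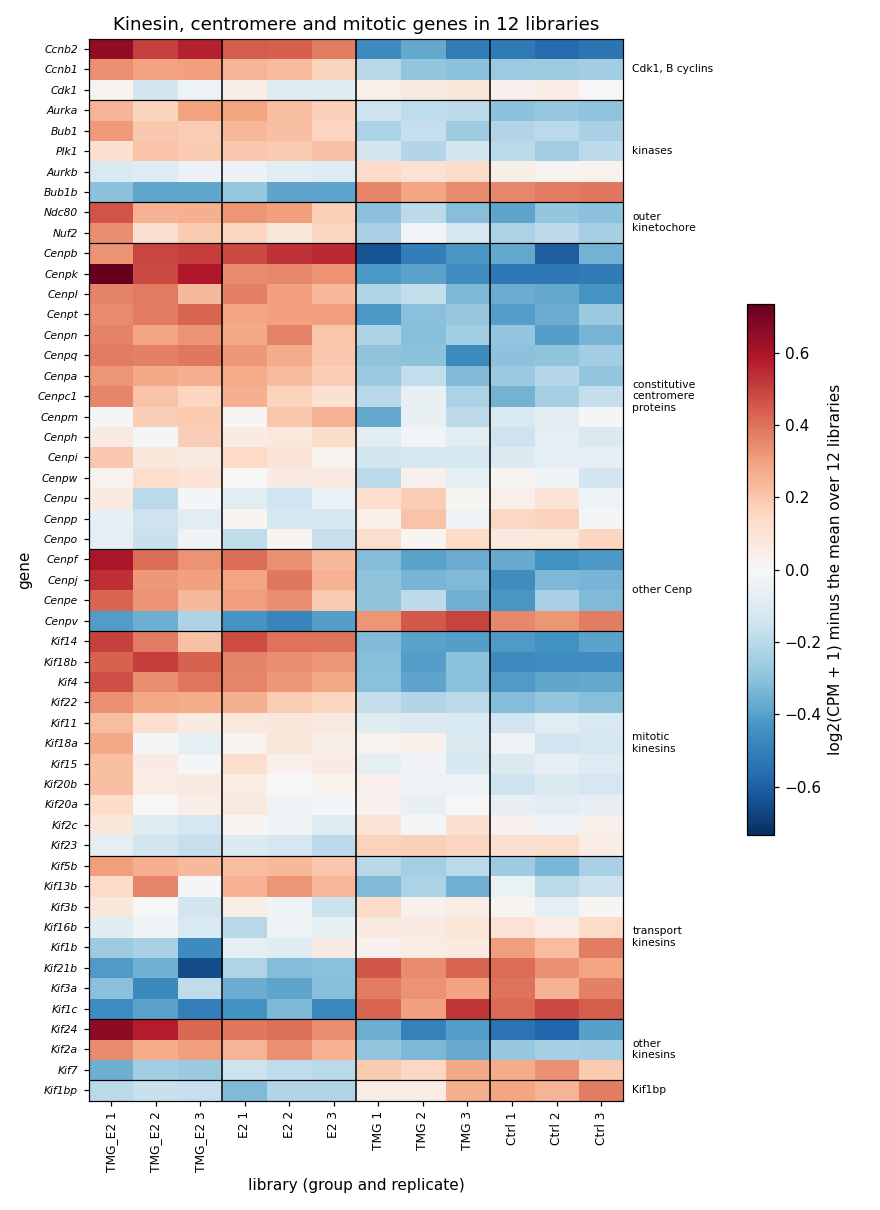
Level of each of the 52 tested genes in each of the 12 libraries, as log2(CPM + 1) minus the gene's mean over the libraries. Rows are genes grouped by role and ordered by their change with E2, and columns are libraries; red is above and blue below the mean. Libraries with E2 and without E2 differ in sign for most rows, with Bub1b, Cenpv and Kif1c among those higher without E2.

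The promoters of 8 genes are shown because these genes stand at the ends of the range of change with E2. Ccnb2, a B cyclin, Cenpb, which binds a DNA box of centromeric satellites, and Cenpk, of the constitutive network, had the 3 highest. The 3 lowest were the transport kinesin Kif1c, the centromere protein Cenpv and the checkpoint protein Bub1b. The mitotic kinesins Kif14 and Kif18b were added after their values were seen. Sequences are from RefSeq on GRCm38.p6, the build of the files, and run 5′ to 3′ along the gene from 250 bases before to 50 bases after its RefSeq start. For Kif14, Kif1c and Cenpv that start lies well inside the annotated gene, whose 5′ end is at chr1:136466301, chr11:70700396 and chr11:62539869. The windows of Kif14 and Cenpv do not reach that end. Capitals mark the letters of the cell cycle homology region (CHR), TTTGAA or TTCAAA on the opposite strand, and of the CCAAT box, CCAAT or ATTGG on the opposite strand. They lie at chr9:70421505-70421804, minus strand (Ccnb2), chr2:131180018-131180317, minus strand (Cenpb), chr13:104228361-104228660, plus strand (Cenpk, the first of 3 starts), chr1:136467598-136467897, plus strand (Kif14) and chr11:102925075-102925374, minus strand (Kif18b). Those of the genes that fell lie at chr11:70700298-70700597, plus strand (Kif1c), chr11:62539212-62539511, minus strand (Cenpv) and chr2:118597961-118598260, plus strand (Bub1b).
Ccnb2: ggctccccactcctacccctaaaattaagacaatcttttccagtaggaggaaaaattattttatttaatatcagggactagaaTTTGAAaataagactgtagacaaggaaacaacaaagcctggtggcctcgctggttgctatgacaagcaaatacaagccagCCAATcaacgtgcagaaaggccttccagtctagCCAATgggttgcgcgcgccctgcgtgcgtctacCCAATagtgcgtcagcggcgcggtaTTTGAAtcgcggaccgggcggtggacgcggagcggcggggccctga
Cenpb: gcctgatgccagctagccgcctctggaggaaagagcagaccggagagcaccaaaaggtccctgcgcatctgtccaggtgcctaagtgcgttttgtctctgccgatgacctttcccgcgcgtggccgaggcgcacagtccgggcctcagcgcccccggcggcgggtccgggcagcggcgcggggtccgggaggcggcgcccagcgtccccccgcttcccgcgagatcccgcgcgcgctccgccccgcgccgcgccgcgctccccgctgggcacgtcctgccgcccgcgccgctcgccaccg
Cenpk: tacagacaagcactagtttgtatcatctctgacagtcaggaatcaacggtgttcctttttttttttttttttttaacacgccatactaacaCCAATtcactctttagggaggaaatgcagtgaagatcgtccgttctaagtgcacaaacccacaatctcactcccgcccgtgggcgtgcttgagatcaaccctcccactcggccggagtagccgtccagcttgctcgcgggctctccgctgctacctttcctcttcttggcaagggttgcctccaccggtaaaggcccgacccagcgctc
Kif14: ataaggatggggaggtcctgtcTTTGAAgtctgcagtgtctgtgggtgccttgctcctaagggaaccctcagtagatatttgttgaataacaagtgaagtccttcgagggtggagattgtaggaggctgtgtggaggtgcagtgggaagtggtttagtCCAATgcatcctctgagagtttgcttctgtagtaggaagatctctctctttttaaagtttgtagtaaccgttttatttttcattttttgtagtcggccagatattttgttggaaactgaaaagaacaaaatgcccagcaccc
Kif18b: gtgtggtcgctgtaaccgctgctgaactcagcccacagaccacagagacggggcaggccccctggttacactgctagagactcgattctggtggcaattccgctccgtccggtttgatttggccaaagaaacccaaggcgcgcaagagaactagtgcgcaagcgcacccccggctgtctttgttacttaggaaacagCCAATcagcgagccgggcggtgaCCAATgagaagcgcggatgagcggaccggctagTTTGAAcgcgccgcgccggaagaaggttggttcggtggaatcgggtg
Kif1c: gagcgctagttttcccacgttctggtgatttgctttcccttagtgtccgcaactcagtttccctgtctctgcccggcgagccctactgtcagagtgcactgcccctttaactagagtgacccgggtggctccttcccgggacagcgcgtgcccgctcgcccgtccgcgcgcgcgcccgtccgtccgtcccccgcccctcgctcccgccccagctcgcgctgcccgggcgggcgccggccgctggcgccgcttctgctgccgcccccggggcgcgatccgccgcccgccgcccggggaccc
Cenpv: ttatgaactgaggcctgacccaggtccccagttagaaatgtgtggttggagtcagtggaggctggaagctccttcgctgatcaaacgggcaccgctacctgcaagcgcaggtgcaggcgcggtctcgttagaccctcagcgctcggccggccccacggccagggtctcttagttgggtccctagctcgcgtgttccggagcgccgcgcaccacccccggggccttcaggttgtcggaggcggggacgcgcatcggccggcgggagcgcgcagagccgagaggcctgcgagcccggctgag
Bub1b: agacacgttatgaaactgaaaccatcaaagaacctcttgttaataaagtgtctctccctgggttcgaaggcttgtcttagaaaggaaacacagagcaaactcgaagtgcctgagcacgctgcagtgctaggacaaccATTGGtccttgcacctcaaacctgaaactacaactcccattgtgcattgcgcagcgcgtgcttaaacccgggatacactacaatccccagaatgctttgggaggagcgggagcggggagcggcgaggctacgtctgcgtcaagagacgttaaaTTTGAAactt
Ccnb2 held 3 CCAAT boxes and 2 CHR matches, one of them beginning 5 bases after the start, and Kif18b held 2 CCAAT boxes and a CHR match beginning 4 bases after the start. Cenpb, Kif1c and Cenpv held neither, and Cenpk held a single CCAAT box at the start shown and 2 at its second start. Bub1b, which fell, also held one of each, with the CHR beginning 41 bases after the start.

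Across the set, 46 of the 52 tested genes had a promoter entry, and a gene counted if any of its listed starts held a match. CHR letters stood in 20 of the 46 (43.5%), against 14.1% of the 6379 filtered genes with an entry and 20.2% of all 27025 genes with one. CCAAT letters on either strand stood in 30 of 46 (65.2%), against 44.4% of the filtered genes and 41.1% of all genes with an entry. Both stood in 16 of 46 (34.8%), against 7.24% and 8.97%. By role the CHR matches were uneven: 9 of 10 mitotic kinesins with a promoter held one and 0 of 5 transport kinesins did. Within 100 bases of the start, 7 of 10 mitotic kinesins and 17 of all 46 genes (37.0%) held a CHR match, against 5.77% of the filtered genes. Of the genes that rose with E2, 15 of 30 (50.0%) held CHR letters and 22 of 30 (73.3%) CCAAT letters, and of those that fell 2 of 10 (20.0%) held CHR letters and 4 of 10 (40.0%) CCAAT letters. Of the genes not called, 3 of 6 (50.0%) held CHR letters and 4 of 6 (66.7%) CCAAT letters, close to the genes that rose. The letters AGATAA, or TTATCT on the opposite strand, which the GATA factors bind, stood in 1 of 46 promoters, that of Cenpa (2.17%), against 7.26% of the filtered genes. A match of so few letters is a description of the window and not a site of binding.

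Among Cdk1 and its cyclins, both cyclins rose and the kinase was not called. Ccnb2 had 106, 95.7 and 99.9 CPM in TMG_E2 cells, 91.9, 91.7 and 87.6 CPM in E2 cells, 48.7, 51.8 and 46.8 CPM in TMG cells and 46.7, 45.1 and 46.1 CPM in Ctrl cells. All 6 libraries with E2 stood above all 6 without it, and its change was the highest of the 52 genes (log2 0.98 ± 0.05, edgeR adjusted p = 3.38e-12). Ccnb1, the cyclin whose degradation ends mitosis, had 480.2, 468 and 470.1 CPM in TMG_E2 cells, 454, 448 and 426 CPM in E2 cells, 330.0, 311 and 308 CPM in TMG cells and 317, 317 and 319 CPM in Ctrl cells. Those groups did not overlap either, and Ccnb1 rose 1.39-fold (log2 0.48 ± 0.04, edgeR adjusted p = 9.72e-10). On the TPM scale the ratio of Ccnb2 to Ccnb1 was 0.333 ± 0.0137 in TMG_E2 cells, 0.320 ± 0.00260 in E2 cells, 0.243 ± 0.0154 in TMG cells and 0.227 ± 0.00410 in Ctrl cells (SD, n = 3 each). Cdk1, the kinase itself, had 139.8, 125 and 134 CPM in TMG_E2 cells, 142, 129 and 129 CPM in E2 cells, 141, 144 and 145 CPM in TMG cells and 140.2, 142 and 137 CPM in Ctrl cells. The E2 and Ctrl values overlapped (log2 -0.07 ± 0.05, edgeR adjusted p = 0.167). The call on Cdk1 changed without E2 replicate 1, when it was called lower (adjusted p = 0.0328).

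Of the 5 mitotic and checkpoint kinases, Aurka, Plk1 and Bub1 rose and Aurkb and Bub1b fell. Aurka, the Aurora kinase of centrosomes and spindle poles, had 148, 139.7 and 153 CPM in TMG_E2 cells, 152, 145 and 141 CPM in E2 cells, 112, 109 and 109 CPM in TMG cells and 101, 102 and 101 CPM in Ctrl cells. Its groups with E2 lay clear above those without (log2 0.53 ± 0.04, edgeR adjusted p = 1.54e-09). Aurkb, the Aurora kinase of the chromosomal passenger complex, had 119, 121 and 125 CPM in TMG_E2 cells, 125, 122 and 120.4 CPM in E2 cells, 142, 139 and 142 CPM in TMG cells and 133, 131 and 131 CPM in Ctrl cells. The fall was slight, though E2 and Ctrl libraries did not overlap (log2 -0.10 ± 0.03, edgeR adjusted p = 0.0093), and it was not called without E2 replicate 3 (adjusted p = 0.0519). Per length, the ratio of Aurkb to Aurka was 0.800 ± 0.0292 in TMG_E2 cells, 0.808 ± 0.0173 in E2 cells, 1.24 ± 0.0182 in TMG cells and 1.25 ± 0.0177 in Ctrl cells, so that the more abundant of the Aurora transcripts was Aurka with E2 and Aurkb without it. Plk1, the Polo kinase, had 136, 145 and 143 CPM in TMG_E2 cells, 144, 143 and 146 CPM in E2 cells, 114, 108 and 114 CPM in TMG cells and 109, 105 and 109.6 CPM in Ctrl cells. The groups did not overlap between E2 and Ctrl (log2 0.42 ± 0.04, edgeR adjusted p = 1.19e-08); a predicted gene on the opposite strand, Gm44985, covers 7.09% of its exon bases.

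The pair of Bub genes went opposite ways. Bub1, a checkpoint kinase that marks histones at the centromere, had 155, 142 and 141 CPM in TMG_E2 cells, 147, 145 and 138 CPM in E2 cells, 105, 110.2 and 103 CPM in TMG cells and 107, 108 and 105 CPM in Ctrl cells. It rose 1.34-fold (log2 0.43 ± 0.04, edgeR adjusted p = 4.77e-08). Bub1b, which encodes BubR1, a part of the complex that holds back the anaphase promoting complex, had 181, 172 and 172 CPM in TMG_E2 cells, 185, 171 and 171 CPM in E2 cells, 288, 274 and 285 CPM in TMG cells and 286, 290.4 and 293 CPM in Ctrl cells. All libraries with E2 stood between 171 and 185 CPM and all without it between 274 and 293 CPM (log2 -0.72 ± 0.04, edgeR adjusted p = 8.3e-12). The ratio of Bub1b to Bub1 per length was 1.36 ± 0.0302 in TMG_E2 cells, 1.35 ± 0.0363 in E2 cells, 2.93 ± 0.148 in TMG cells and 2.98 ± 0.0904 in Ctrl cells (SD, n = 3 each). The summed level of the 5 kinases was nearly the same in all groups, 731 ± 10.6 CPM in TMG_E2 cells, 732 ± 19.1 CPM in E2 cells, 751 ± 10.6 CPM in TMG cells and 738 ± 2.43 CPM in Ctrl cells.

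**Figure D2:**
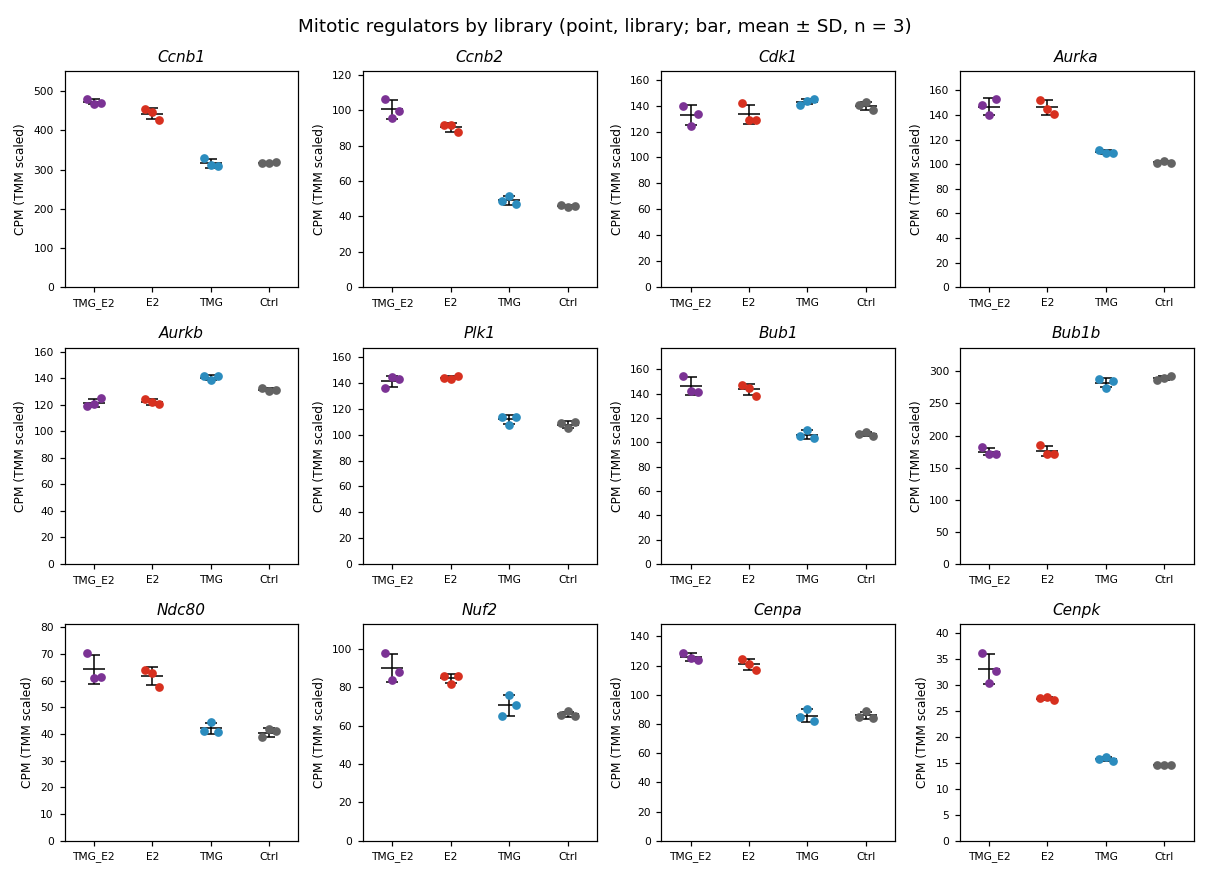
CPM, scaled by TMM, of 12 mitotic and centromere genes in each library. Points are libraries, bars are the mean ± SD of 3 libraries, and every axis starts at 0. Bub1b and Aurkb are lower in the groups with E2, Cdk1 overlaps between E2 and Ctrl, and the other 9 genes are higher with E2.

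Both outer kinetochore genes rose. Ndc80, whose complex binds the microtubule end, had 70.5, 61.0 and 61.3 CPM in TMG_E2 cells, 64.1, 62.9 and 57.7 CPM in E2 cells, 41.1, 44.6 and 40.9 CPM in TMG cells and 38.7, 41.7 and 41.2 CPM in Ctrl cells. No library with E2 overlapped one without it (log2 0.60 ± 0.06, edgeR adjusted p = 6.63e-08). Nuf2, its partner in that complex, had 98.0, 83.6 and 88.1 CPM in TMG_E2 cells, 86.1, 81.8 and 86.0 CPM in E2 cells, 65.2, 75.9 and 70.6 CPM in TMG cells and 65.5, 67.5 and 65.0 CPM in Ctrl cells. The rise of Nuf2 was smaller (log2 0.36 ± 0.06, edgeR adjusted p = 2.43e-05), and its E2 libraries lay above every Ctrl library.

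Of the 15 genes of constitutive centromere proteins, 11 rose, 2 fell and 2 were not called, with a median log2 fold change of 0.45. Cenpa, the centromeric histone, had 129, 125 and 124 CPM in TMG_E2 cells, 125, 121 and 117 CPM in E2 cells, 85.1, 90.5 and 81.9 CPM in TMG cells and 84.9, 88.8 and 83.9 CPM in Ctrl cells. Groups with and without E2 did not overlap (log2 0.49 ± 0.04, edgeR adjusted p = 7.48e-09). Cenpb had 70.0, 78.7 and 79.5 CPM in TMG_E2 cells, 78.3, 80.8 and 81.7 CPM in E2 cells, 35.5, 38.8 and 41.2 CPM in TMG cells and 42.7, 36.3 and 43.5 CPM in Ctrl cells. The level in E2 cells was 1.97-fold that in Ctrl cells (log2 0.97 ± 0.07, edgeR adjusted p = 3.27e-10). Cenpk, which works in a complex with the products of Cenph, Cenpi and Cenpm, had 36.1, 30.3 and 32.6 CPM in TMG_E2 cells, 27.3, 27.5 and 27.0 CPM in E2 cells, 15.7, 16.03 and 15.2 CPM in TMG cells and 14.5, 14.5 and 14.6 CPM in Ctrl cells. Its E2 libraries lay close together and well above those of Ctrl cells (log2 0.91 ± 0.07, edgeR adjusted p = 8.61e-10). The 3 other genes of that complex rose by smaller amounts, in a difference between genes that was not tested: Cenph, Cenpi and Cenpm had log2 fold changes of 0.21 ± 0.05, 0.17 ± 0.05 and 0.24 ± 0.09. Cenpm, with the largest p of them, had 18.1, 20.8 and 21.7 CPM in E2 cells, against 16.6, 16.9 and 17.8 CPM in Ctrl cells.

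Cenpn, whose protein recognises CENP-A, had 59.5, 63.2 and 56.5 CPM in E2 cells, against 39.9, 36.7 and 38.3 CPM in Ctrl cells (log2 0.64 ± 0.05, edgeR adjusted p = 1.68e-09). Its partner Cenpl had 26.0, 24.8 and 23.8 CPM in E2 cells, against 15.2, 15.1 and 14.5 CPM in Ctrl cells (log2 0.73 ± 0.07, edgeR adjusted p = 1.52e-08). Neither pair of groups overlapped. Cenpt, which bridges to the outer kinetochore, had 29.9, 30.2 and 30.4 CPM in E2 cells, against 18.1, 18.7 and 20.0 CPM in Ctrl cells (log2 0.67 ± 0.06, edgeR adjusted p = 7.32e-09). Cenpw, the partner of Cenpt, was not called, with 31.6, 33.0 and 33.2 CPM in E2 cells, against 32.1, 30.9 and 28.6 CPM in Ctrl cells (log2 0.10 ± 0.06, edgeR adjusted p = 0.166). The partners thus differed in call, though the difference between them was not tested. Cenpc1, the central link of the network, had 42.4, 39.5 and 38.2 CPM in E2 cells, against 27.4, 29.6 and 31.1 CPM in Ctrl cells, without overlap (log2 0.45 ± 0.07, edgeR adjusted p = 1.1e-05).

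The group of Cenpo, Cenpp, Cenpq and Cenpu, whose proteins form a complex, was split. Cenpq had 42.1, 41.8 and 42.3 CPM in TMG_E2 cells, 40.4, 39.0 and 37.0 CPM in E2 cells, 26.0, 26.0 and 23.0 CPM in TMG cells and 26.0, 26.0 and 26.8 CPM in Ctrl cells. It rose in E2 cells (log2 0.56 ± 0.05, edgeR adjusted p = 3.68e-08). Cenpo and Cenpp fell by 0.22 and 0.19 on the log2 scale, and Cenpu was not called (log2 -0.13 ± 0.07, edgeR adjusted p = 0.0943). Cenpo, Cenpp and Cenpu share 24.3%, 27.5% and 36.5% of their exon bases with genes on the opposite strand (Adcy3, Ippk and Primpol), and as the sources used here do not give the strand setting of the counting, their values are uncertain. The calls of Cenpm and Cenpp did not hold without single libraries: the adjusted p of Cenpm was 0.0636 without E2 replicate 2, 0.0800 without E2 replicate 3 and 0.0543 without Ctrl replicate 1. For Cenpp it was 0.122 and 0.121 without E2 replicates 2 and 3, and 0.121 and 0.147 without Ctrl replicates 1 and 2, and it was 0.0695 by DESeq2.

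The other 4 Cenp genes encode proteins outside the constitutive network. Cenpe, a kinesin motor of the kinetochore that brings chromosomes to the spindle equator, had 182, 170.5 and 159.9 CPM in TMG_E2 cells, 168, 172 and 155 CPM in E2 cells, 109.9, 118 and 106 CPM in TMG cells and 100.2, 114 and 108 CPM in Ctrl cells. Its groups with and without E2 were well apart (log2 0.62 ± 0.06, edgeR adjusted p = 2.72e-08). Cenpf, a large protein of the outer kinetochore that also binds the nuclear envelope, had 174, 153 and 144 CPM in TMG_E2 cells, 153, 145 and 136 CPM in E2 cells, 91.9, 87.3 and 88.9 CPM in TMG cells and 88.6, 84.1 and 85.4 CPM in Ctrl cells. It rose 1.68-fold (log2 0.75 ± 0.06, edgeR adjusted p = 2.48e-09). Cenpj, which works in centriole growth and was the lowest of these genes per length, had 20.0, 21.5 and 19.6 CPM in E2 cells, against 11.5, 12.7 and 12.6 CPM in Ctrl cells (log2 0.73 ± 0.08, edgeR adjusted p = 1.25e-07). For each of these 3 genes the E2 libraries lay above the Ctrl libraries. Cenpv had 34.3, 35.7 and 39.1 CPM in TMG_E2 cells, 33.8, 32.6 and 34.5 CPM in E2 cells, 57.9, 63.1 and 65.4 CPM in TMG cells and 59.1, 57.9 and 59.9 CPM in Ctrl cells. It was lower in each library with E2 than in each without it (log2 -0.81 ± 0.05, edgeR adjusted p = 2.5e-10).

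The 11 mitotic kinesins had a median log2 fold change of 0.16, against 0.45 over the 15 constitutive centromere genes, a difference that was not tested. The highest change was that of Kif14, a motor needed for cytokinesis. Kif14 had 178, 164 and 146 CPM in TMG_E2 cells, 175, 166 and 166 CPM in E2 cells, 99.8, 95.3 and 94.6 CPM in TMG cells and 93.7, 92.0 and 95.3 CPM in Ctrl cells, and no library with E2 overlapped one without it (log2 0.85 ± 0.06, edgeR adjusted p = 1.75e-10). Kif18b, of the kinesin-8 family that shortens astral microtubules, had 127, 134 and 127 CPM in TMG_E2 cells, 121, 119 and 118 CPM in E2 cells, 75.3, 70.5 and 76.0 CPM in TMG cells and 67.5, 68.0 and 68.0 CPM in Ctrl cells. The libraries of each group lay close together (log2 0.81 ± 0.04, edgeR adjusted p = 2.11e-12). Kif4, a kinesin of chromosome arms and the spindle midzone, had 145, 132 and 137 CPM in TMG_E2 cells, 134, 130.0 and 127 CPM in E2 cells, 83.8, 79.5 and 83.9 CPM in TMG cells and 77.9, 79.5 and 79.9 CPM in Ctrl cells. It rose 1.65-fold (log2 0.72 ± 0.04, edgeR adjusted p = 2.67e-11), with 15.1% of its exon bases shared with Pdzd11 on the opposite strand, and its pseudogene Kif4-ps was at 0 counts. Kif22, another motor of chromosome arms, had 150.5, 143 and 140.2 CPM in E2 cells, against 100.3, 102 and 101 CPM in Ctrl cells. It rose in E2 cells, with narrow spread in both groups (log2 0.52 ± 0.04, edgeR adjusted p = 4.68e-10).

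Kif11, the motor that pushes the spindle poles apart, changed little. It had 225, 209 and 199 CPM in TMG_E2 cells, 203, 203 and 200.3 CPM in E2 cells, 180.4, 178 and 177 CPM in TMG cells and 174, 182 and 177 CPM in Ctrl cells. The E2 libraries were above the Ctrl libraries by a small margin (log2 0.19 ± 0.04, edgeR adjusted p = 0.000339), and scaled by library size alone it was not called (adjusted p = 0.0665). Kif15, which backs Kif11 up in the spindle, and Kif20b rose by 0.16 ± 0.05 and 0.15 ± 0.04. Kif23, a motor of the central spindle, had 105, 102 and 98.2 CPM in E2 cells, against 122, 123 and 116 CPM in Ctrl cells. It was the only mitotic kinesin of the 11 to be called lower (log2 -0.24 ± 0.04, edgeR adjusted p = 2.02e-05). Kif18a, Kif20a and the microtubule depolymerase Kif2c were not called (log2 0.16 ± 0.08, 0.08 ± 0.04 and -0.05 ± 0.05), and the calls on Kif18a and Kif20a depended on the setting. Kif18a was called higher without Ctrl replicate 1 (adjusted p = 0.0448), with no filter (0.0372) and with only the groups compared (0.00712). Kif20a was called higher with only the groups compared (0.0310). Kif20a shares 31.8% of its exon bases with Cdc23 on the opposite strand.

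The 8 transport kinesins tested went the other way on balance, with 5 lower, 2 higher and a median log2 fold change of -0.27. Kif1c, a vesicle and RNA carrier, had 27.6, 28.9 and 26.8 CPM in TMG_E2 cells, 27.8, 30.2 and 27.3 CPM in E2 cells, 51.9, 47.4 and 55.5 CPM in TMG cells and 51.3, 53.9 and 52.3 CPM in Ctrl cells. Its libraries with E2 stood between 26.8 and 30.2 CPM and those without E2 between 47.4 and 55.5 CPM, and its fold change was the lowest of the 52 genes (log2 -0.88 ± 0.06, edgeR adjusted p = 2.45e-10). Kif3a, a subunit of the kinesin-2 motor of cilia, had 23.5, 20.9 and 25.7 CPM in TMG_E2 cells, 22.5, 22.2 and 23.5 CPM in E2 cells, 38.4, 37.1 and 36.2 CPM in TMG cells and 38.9, 35.2 and 38.2 CPM in Ctrl cells. It fell in every library with E2 (log2 -0.72 ± 0.07, edgeR adjusted p = 1.76e-08). Its partner Kif3b was not called (log2 -0.04 ± 0.06). Kif21b, known in neurons and lymphocytes as a regulator of microtubule growth, had 142, 149 and 121 CPM in TMG_E2 cells, 163, 153 and 154 CPM in E2 cells, 262, 243 and 257 CPM in TMG cells and 254, 241 and 233 CPM in Ctrl cells. The 6 libraries with E2 lay below the 6 without it (log2 -0.63 ± 0.06, edgeR adjusted p = 2.41e-08).

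Kif1b, a carrier of mitochondria and of synaptic vesicle precursors in neurons, also fell (log2 -0.34 ± 0.06), as did the endosomal motor Kif16b (-0.20 ± 0.06). Kif5b, the widely expressed heavy chain of conventional kinesin, rose, with 234, 236 and 229 CPM in E2 cells, against 166, 158 and 169 CPM in Ctrl cells (log2 0.50 ± 0.04, edgeR adjusted p = 5.09e-10). It was the most abundant transport kinesin per length in Ctrl cells, at 45.4 ± 2.38 TPM, with Kif21b next at 42.5 ± 2.01 TPM, and these did not differ beyond their spread in that order. The other transport kinesin to rise was Kif13b (0.44 ± 0.09). Kif1bp, whose protein binds several kinesins and keeps them off microtubules, had 23.2, 23.8 and 23.7 CPM in TMG_E2 cells, 21.2, 22.9 and 22.8 CPM in E2 cells, 27.8, 27.9 and 32.4 CPM in TMG cells and 32.9, 32.0 and 35.0 CPM in Ctrl cells. It was lower in E2 cells than in Ctrl cells (log2 -0.58 ± 0.06, edgeR adjusted p = 2.23e-07), with 12.7% of its exon bases shared with a gene on the opposite strand, 4933428P19Rik. Of the 3 other kinesins tested, Kif24, a centriolar kinesin, had 148, 139.7 and 125 CPM in TMG_E2 cells, 122, 124 and 119 CPM in E2 cells, 72.4, 65.8 and 70.2 CPM in TMG cells and 63.8, 61.9 and 70.4 CPM in Ctrl cells. It rose in E2 cells (log2 0.89 ± 0.06, edgeR adjusted p = 2.08e-10). Kif2a, which shortens microtubules, had 153, 162 and 153 CPM in E2 cells, against 106, 108 and 107 CPM in Ctrl cells. It too rose (log2 0.54 ± 0.04, edgeR adjusted p = 3.49e-10). Kif7, a kinesin of the primary cilium in Hedgehog signalling, fell, with 21.6, 21.0 and 20.9 CPM in E2 cells, against 29.3, 30.7 and 27.7 CPM in Ctrl cells (log2 -0.47 ± 0.06, edgeR adjusted p = 1.17e-06). Dimt1 and 9330171B17Rik, on the opposite strand, cover 13.2% of the exon bases of Kif2a and 19.1% of those of Kif7.

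The shares below are of the summed transcripts, per length, of 38 kinesin genes, the motors with Kif names and Cenpe. Kif2a counted among the other kinesins, the parts depend on such choices, and no different classing was tried. Classed so, the mitotic motors with Cenpe kept about the same part in all groups. They made up 70.1% ± 0.517 in TMG_E2 cells, 69.5% ± 0.505 in E2 cells, 69.6% ± 0.467 in TMG cells and 68.9% ± 0.618 in Ctrl cells (SD, n = 3 each), with overlapping libraries. Transport kinesins made up 14.5% ± 0.309 in TMG_E2 cells, 15.3% ± 0.203 in E2 cells, 19.2% ± 0.475 in TMG cells and 19.5% ± 0.701 in Ctrl cells. The other kinesins made up 15.4% ± 0.208 in TMG_E2 cells, 15.2% ± 0.548 in E2 cells, 11.2% ± 0.0924 in TMG cells and 11.6% ± 0.138 in Ctrl cells. For both of these classes no library with E2 overlapped one without it. Kif24 and Kif2a, which lead the class of other kinesins, had 51.8 ± 1.53 and 63.4 ± 1.57 TPM in E2 cells. In Ctrl cells they had 28.6 ± 2.02 and 50.1 ± 0.349 TPM. TPM is not scaled by TMM, and their changes by edgeR were log2 0.89 ± 0.06 and 0.54 ± 0.04. Kifc1, a minus-end motor of the spindle, and the related Kifc5b are not in that sum. Kifc1 had 109, 103 and 104 CPM in E2 cells, against 73.4, 70.3 and 80.7 CPM in Ctrl cells, and Kifc5b had 48.6, 47.8 and 49.1 CPM in E2 cells, against 41.9, 39.4 and 39.7 CPM in Ctrl cells.

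**Figure D3:**
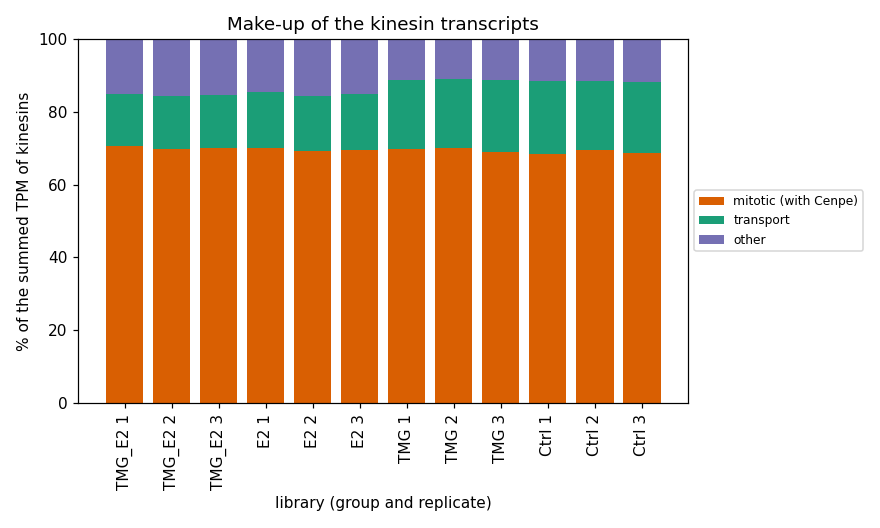
Make-up of the kinesin transcripts in each library, as percentages of the summed TPM of 38 kinesin genes. Classes are mitotic motors (11 genes and Cenpe), transport motors (15 genes) and other kinesins (11 genes, Kif2a among them). Bars are libraries; the mitotic part lies between 68.3% and 70.7% throughout, and the transport part is smaller in the 6 libraries with E2.

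The same change with E2 was measured under TMG, in libraries that the first comparison does not use. In TMG_E2 against TMG cells 33 of the 52 genes rose, 13 fell and 6 were not called, 88.5% called against 82.7% of all genes tested, with 40.9% of all genes higher and 41.8% lower. The median log2 fold change was 0.34, against -0.01 over all genes. All 52 genes had the same sign as without TMG, as did 7883 of all 8273 genes. Of the 52 genes, 44 were called in the same direction in both settings, 32 higher and 12 lower, where 77.7% of all genes were. Cenpp was called only without TMG, and Cdk1 and Cenpw only under TMG, and the interaction was called for none of the 3. Across the 52 genes the changes with E2 in the separate libraries had a Pearson correlation of 0.987, and across all 8273 genes one of 0.989; genes are not independent, and this describes likeness only.

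Under TMG, Ccnb2 and Cenpk passed 2-fold, with log2 fold changes of 1.04 ± 0.05 and 1.08 ± 0.07. Of all genes tested there, 18.4% passed 2-fold. The other genes with the smallest p there were Kif18b (0.81 ± 0.04), Bub1b (-0.69 ± 0.04), Kif4 (0.75 ± 0.04), Kif2a (0.64 ± 0.04), Kif24 (0.99 ± 0.06) and Ccnb1 (0.58 ± 0.04), each with an edgeR adjusted p of 7.01e-11 or less. Their libraries did not overlap between TMG_E2 and TMG cells, and each held its call in all alternatives tried. The call of Cdk1 (log2 -0.11 ± 0.05, adjusted p = 0.0391) was lost without TMG_E2 replicate 2 or 3 (adjusted p = 0.279 and 0.0558) and without TMG replicate 2 or 3 (adjusted p = 0.1101 and 0.1001). It was also lost with another scaling, RLE (adjusted p = 0.0582), under filterByExpr (0.0655), by DESeq2 (0.0661) and with only the groups compared (0.0979). The call of Cenpw (adjusted p = 0.024) was lost without TMG_E2 replicate 2 (adjusted p = 0.0625) or TMG replicate 1 (adjusted p = 0.151). Kif16b (log2 -0.16 ± 0.06, adjusted p = 0.0334) was not called with no filter (0.0807), by DESeq2 (0.111), with only the groups compared (0.0769), without TMG_E2 replicate 1 or 3 (0.0839 and 0.0902) or without TMG replicate 1, 2 or 3 (0.0589, 0.0726 and 0.0797). Further losses with a library left out were those of Kif20b without TMG_E2 replicate 1 (adjusted p = 0.0662), Cenpo without TMG_E2 replicate 2 (0.0775) and Cenph without TMG_E2 replicate 3 (0.0709). Kif2c was called lower without TMG_E2 replicate 1 (0.00488) or TMG replicate 2 (0.0426), Cenpu without TMG_E2 replicate 1 (0.0131) or TMG replicate 3 (0.0243), Cenpp without TMG replicate 3 (0.0245) and Kif3b without TMG_E2 replicate 1 (0.0478). Kif20a was called higher without TMG_E2 replicate 2 (0.0244). Same-numbered libraries deviated together between these groups, and with the replicate number as a block Cenpp, Cenpu and Kif2c were also called, with log2 fold changes of -0.19, -0.16 and -0.11 and adjusted p-values of 0.0431, 0.0432 and 0.0389. Scaled by library size alone, the median of all genes was -0.11, and 29 of the 52 genes rose and 17 fell. Of the calls over all genes 49.5% were higher by TMM and 41.9% by library size alone. Under that scaling the calls of Cenph, Cenpw, Kif15 and Kif20b were lost, and Cenpp, Cenpu, Kif2c and Kif3b were called lower.

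**Figure D4:**
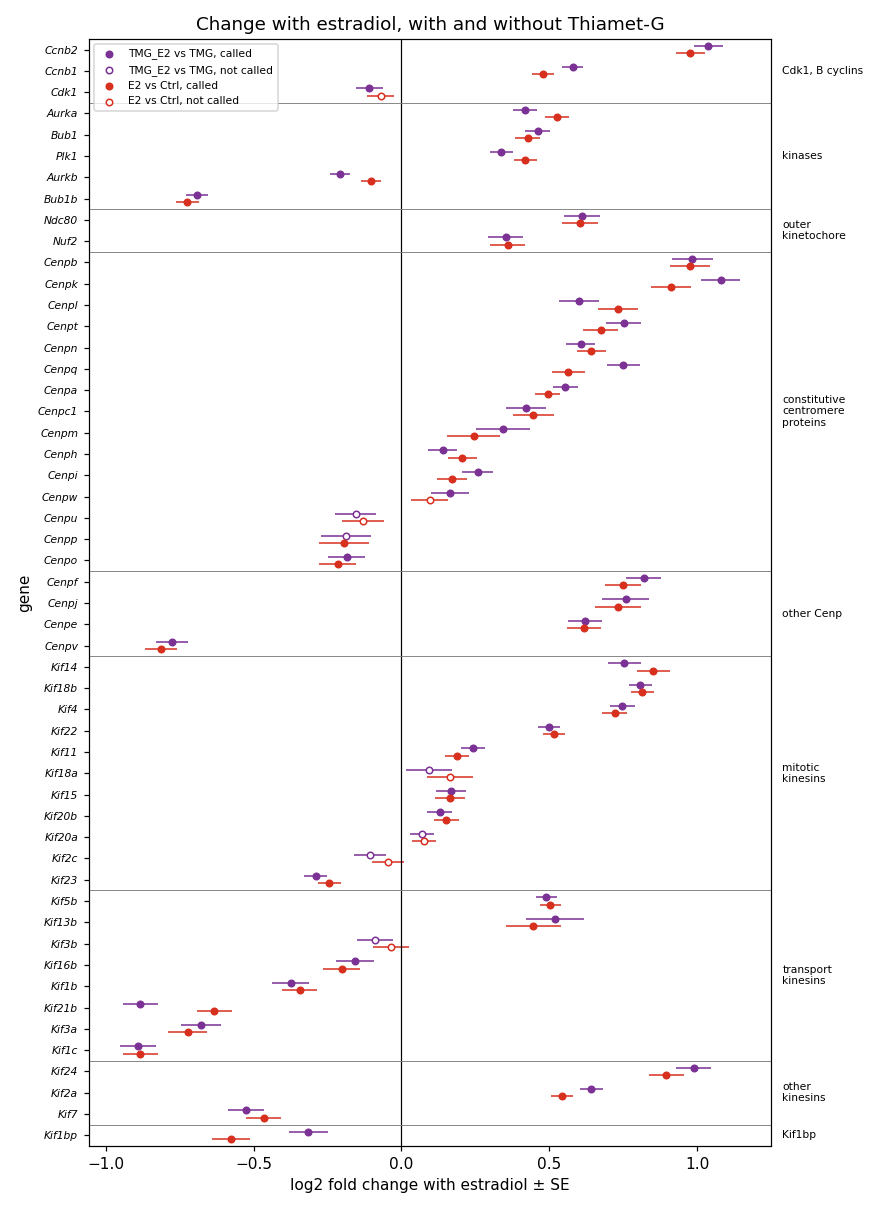
Log2 fold change with E2 for each of the 52 tested genes, by role, in TMG_E2 against TMG cells (purple, upper point of each row) and in E2 against Ctrl cells (red, lower point). Bars are ± SE of the fit, filled points were called at an adjusted p under 0.05 and open points were not. The points of a gene lie on the same side of 0 in all 52 rows, and the widest gaps are those of Kif1bp and Kif21b.

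TMG alone moved few of these genes. In TMG against Ctrl cells 0 of 52 rose and 1, Kif1b, fell, which is 1.92% called, against 5.15% of all genes tested (3.01% higher and 2.14% lower). Of the calls over all genes 58.5% were higher by TMM and 43.6% by library size alone. DESeq2 also called 0 higher. At an unadjusted p under 0.05 there were 8 genes, and log2 fold changes ran from -0.26 to 0.16. Counts at an unadjusted p, here and below, have no share of all genes beside them and are descriptive only. The 95% intervals of all 52 genes lay between -0.39 and 0.31, which bounds what these libraries leave room for. Kif1b had 40.7, 41.3 and 41.9 CPM in TMG cells, against 49.6, 46.8 and 52.0 CPM in Ctrl cells. The groups did not overlap (log2 -0.26 ± 0.06, edgeR adjusted p = 0.0173), but the call did not hold without TMG replicate 1 or 2 (adjusted p = 0.0686 and 0.0564) or without Ctrl replicate 1 or 3 (adjusted p = 0.0578 and 0.0904).

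With E2 present, TMG moved 4 of the 52 genes. In TMG_E2 against E2 cells Cenpk, Ccnb2 and Kif24 rose and Kif1b fell, which is 7.69% called, against 12.8% of all genes tested (5.61% higher and 7.14% lower). Of the calls over all genes 44.0% were higher by TMM and 31.3% by library size alone, under which Cenpk and Kif1b were the described genes still called. Log2 fold changes ran from -0.29 to 0.28, with 95% intervals between -0.43 and 0.41, and 10 genes had an unadjusted p under 0.05. Kif1b had 33.0, 33.6 and 28.6 CPM in TMG_E2 cells, against 38.0, 37.5 and 41.5 CPM in E2 cells. It was lower in each TMG_E2 library than in each E2 library (log2 -0.29 ± 0.06, edgeR adjusted p = 0.00649). Cenpk had 36.1, 30.3 and 32.6 CPM in TMG_E2 cells, against 27.3, 27.5 and 27.0 CPM in E2 cells, again without overlap (log2 0.28 ± 0.06, edgeR adjusted p = 0.00834). Both calls held in all alternatives tried, with adjusted p-values of 0.000602 to 0.0374 for Kif1b and 0.00337 to 0.0452 for Cenpk.

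The calls of Ccnb2 and Kif24 were close to the threshold. Ccnb2 had 106, 95.7 and 99.9 CPM in TMG_E2 cells, against 91.9, 91.7 and 87.6 CPM in E2 cells (log2 0.16 ± 0.05, edgeR adjusted p = 0.0328). Kif24 had 148, 139.7 and 125 CPM in TMG_E2 cells, against 122, 124 and 119 CPM in E2 cells (log2 0.18 ± 0.06, edgeR adjusted p = 0.0476). Neither pair of groups overlapped. Ccnb2 was not called without TMG_E2 replicate 1 (adjusted p = 0.1004) or without E2 replicate 1, 2 or 3 (adjusted p = 0.0541, 0.0599 and 0.146). Kif24 was not called without TMG_E2 replicate 1 or 2 (adjusted p = 0.137 and 0.0883) or without E2 replicate 1, 2 or 3 (adjusted p = 0.0860, 0.0746 and 0.165). The TMG_E2 libraries also differed more among themselves over these genes, with a chi-square per degree of freedom of 3.59 to 5.67 between pairs, than the libraries of the other groups (1.39 to 2.80).

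Same-numbered libraries deviated together in this comparison, and a fit with the replicate number as a block called 6 genes higher and 2 lower. The share of all genes called by that fit is not given here, so the gain was not weighed against the background. The genes gained were Ccnb1 (adjusted p = 0.0486), Cenpf (0.0489) and Kif18b (0.0386), which were higher, and Kif21b (0.0178), which was lower. Kif21b had 142, 149 and 121 CPM in TMG_E2 cells, against 163, 153 and 154 CPM in E2 cells, with no overlap (log2 -0.18 ± 0.06, edgeR adjusted p = 0.056 without the block). Without E2 it did not move in that direction, with 262, 243 and 257 CPM in TMG cells, against 254, 241 and 233 CPM in Ctrl cells (log2 0.07 ± 0.06, edgeR adjusted p = 0.597).

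The changes with TMG in cells with and without E2 come from separate libraries. Of the 52 genes 35 had the same sign in both, as did 5615 of all 8273 genes. The Pearson correlation was 0.54 across the 52 genes and 0.48 across all 8273. Whether the response to TMG depended on E2 was tested as an interaction, the change with TMG under E2 minus that without E2. None of the 52 genes was called by edgeR, with 4 at an unadjusted p under 0.05 and 0 called by DESeq2, where edgeR called 0.931% of all genes (0.266% higher and 0.665% lower). The 3 smallest p-values were those of Kif21b (log2 -0.25 ± 0.08, edgeR adjusted p = 0.216), Kif1bp (log2 0.26 ± 0.09, edgeR adjusted p = 0.24) and Cenpq (log2 0.19 ± 0.08, edgeR adjusted p = 0.367). Kif1bp had 23.2, 23.8 and 23.7 CPM in TMG_E2 cells, against 21.2, 22.9 and 22.8 CPM in E2 cells, and 27.8, 27.9 and 32.4 CPM in TMG cells, against 32.9, 32.0 and 35.0 CPM in Ctrl cells. Only Kif21b was called under any alternative, when no filter on low counts was used (adjusted p = 0.0459). For Cenpk, Ccnb2 and Kif24 the interaction was 0.17 ± 0.09, 0.06 ± 0.07 and 0.09 ± 0.08, so their response under E2 was not shown to differ from that without it.

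**Figure D5:**
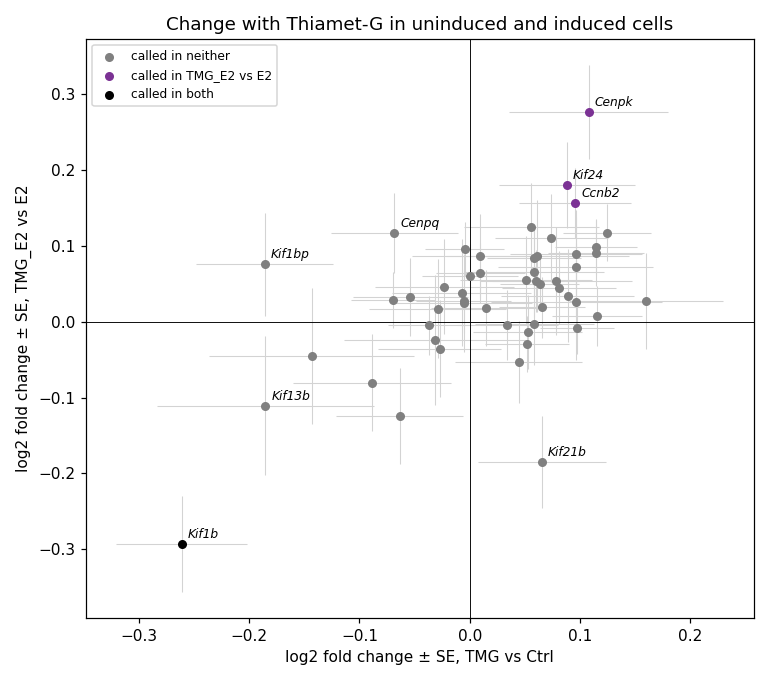
Log2 fold change with TMG of the 52 tested genes, in TMG_E2 against E2 cells (vertical axis) and in TMG against Ctrl cells (horizontal axis), with bars of ± SE. Black marks the gene called in both comparisons (Kif1b), purple those called with E2 present, and grey those called in neither. All values lie between -0.30 and 0.30.

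Other genes of mitosis and of microtubule transport, taken from lists of known components, were measured in the same libraries. Of 17 tested spindle and cytokinesis genes 15 rose in E2 against Ctrl cells and 1, Ect2, fell, with a median of 0.37. These counts and those of the lists that follow stand beside 41.5% higher and 41.2% lower over all genes tested, with 82.7% called. Cit, the citron kinase of the cleavage furrow, and Nusap1, a spindle protein, rose by 2.12 ± 0.05 and 1.48 ± 0.05, more than any of the 52 genes. Of 10 Cdk1 regulators 6 rose and 2 fell (median 0.36), led by the phosphatase Cdc25b (3.66 ± 0.07) and cyclin A2, Ccna2 (0.97 ± 0.04). Cdc25b had 97.7, 88.2 and 88.7 CPM in E2 cells, against 6.67, 7.45 and 7.60 CPM in Ctrl cells, so it passed the filter only through the libraries with E2. All 3 chromosomal passenger genes tested beside Aurkb rose, among them Cdca8 (0.54 ± 0.03) and Birc5 (0.42 ± 0.04). Of 7 genes of the outer kinetochore network beyond Ndc80 and Nuf2, 4 rose and 0 fell, with Spc25 at 1.02 ± 0.07 and Nsl1 at 0.74 ± 0.04.

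Of 10 spindle checkpoint genes tested 3 rose and 3 fell (median 0.04), which is 60% called, below the 82.7% of all genes, with Kntc1, which recruits dynein to kinetochores, at 0.93 ± 0.06 and Trip13, which takes the checkpoint complex apart, at -1.11 ± 0.06. Of 9 genes of centromere loading and cohesion 6 rose and 1 fell, Oip5 by 0.61 ± 0.06 and Sgol1 by 0.37 ± 0.04. Of 18 genes of the anaphase promoting complex and its targets 6 rose and 5 fell, with Pttg1, which encodes securin, at 1.54 ± 0.05 and the subunit Cdc27 at 0.87 ± 0.05. Of 14 transcription factors of the cell cycle 8 rose and 5 fell (median 0.28), with E2f4 at -1.03 ± 0.05 and its partner Tfdp1 at -0.83 ± 0.05. Foxm1, an activator of late cell cycle genes, was not called (log2 -0.09 ± 0.05, edgeR adjusted p = 0.0942).

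For transport, 12 of 14 dynein and dynactin genes rose and 2 fell (median 0.36), led by Dctn6 (1.81 ± 0.05) and Dctn4 (0.67 ± 0.04). Of 8 kinesin light chains and adaptors 4 rose and 3 fell, an even split like that of all genes, with Trak2, a mitochondrial adaptor, at 1.28 ± 0.04. Kifap3, the adaptor that joins Kif3a and Kif3b, fell like Kif3a, with 3.22, 3.53 and 3.47 CPM in TMG_E2 cells, 5.01, 4.25 and 5.00 CPM in E2 cells, 10.8, 10.4 and 10.8 CPM in TMG cells and 12.9, 15.5 and 17.1 CPM in Ctrl cells. Its change with E2 was -1.68 ± 0.11, and it passed the filter only through libraries without E2. Kifap3 also fell with TMG, both without E2 (log2 -0.51 ± 0.10, edgeR adjusted p = 0.00572) and with it (log2 -0.48 ± 0.14, edgeR adjusted p = 0.029). Tacc3, a spindle protein that Aurka phosphorylates, rose with TMG without E2 (log2 0.20 ± 0.04, edgeR adjusted p = 0.00678) and with it (log2 0.13 ± 0.04, edgeR adjusted p = 0.0378). With E2 present TMG was also followed by calls for Ccna2 (0.13 ± 0.04), Birc5 (0.12 ± 0.04), Pttg1 (0.15 ± 0.05), Cdc25b (-0.26 ± 0.06), Tfdp1 (-0.16 ± 0.05) and Dync1h1 (-0.15 ± 0.05). These calls and those of Kifap3 and Tacc3 stand beside 12.8% of all genes called. By list, 33.3% of 3 passenger genes, 20% of 10 Cdk1 regulators and 12.5% of 8 kinesin light chains and adaptors were called. The share was 0% to 7.14% in each of the remaining lists. Without E2, Kifap3 and Tacc3 were the only genes of these lists called, beside 5.15% of all genes.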

How the data were processed

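RNA was sequenced from 12 libraries of G1E-ER4 cells, grouped by their titles into 4 groups of 3. The series design text gives stranded poly(A) libraries, FastQC 0.11.2, RSEM 1.2.22 on GRCm38, and edgeR 3.14.0 in R 3.2.2; the submitters' processing notes also name Bowtie2. Per the file headers, the authors deposited RSEM expected counts, which share ambiguous reads among genes and need not be whole. The deposited TPM values, per length and per library as RSEM writes them for the authors, served for levels between genes and for ratios and shares within a library. The deposited FPKM values, also scaled by the authors, were not used.

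Expected counts were rounded and fitted with edgeR 4.0.16 in R 4.3.3 (quasi-likelihood, TMM, more than 10 CPM in at least 2 libraries, as in the design text), with a mean per group over all 12 libraries. The 4 pairwise comparisons and the interaction were tested; all rose and fell statements use an adjusted p under 0.05. The method was tested on simulated counts. Alternatives were other scalings and filters, DESeq2 1.42.0, the replicate block, only the groups compared, and each library left out.

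The genes and lists were chosen with earlier results of these data known. Values in every library are given for 14 fixed mitotic genes, the 6 highest and 6 lowest changes with E2, the called genes of the other comparisons (at most 8) and the 3 smallest p of the interaction; other per-library values were added after they were seen. Promoters come from the RefSeq table on GRCm38.p6, and exon overlaps from GENCODE on the same build. Proteins and genome-wide sequence were not used here.

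Any pair of libraries of a group differed by more than counting error, with chi-square divided by its degrees of freedom at 2.41 to 13.1. Same-numbered libraries were taken as paired where their deviations from the group means correlated above 0.1 for each number, since the labels state no shared day. This held for TMG_E2 vs E2 (0.334, 0.212 and 0.213) and for TMG_E2 vs TMG (0.480, 0.153 and 0.300).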

Additional observations from a re-analysis of the deposited data

How the results depend on the processing

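Of the single-gene results tried under alternatives, 513 kept direction and call, 3 gained a call and 19 lost it, and none changed sign. The counts for E2 vs Ctrl and TMG_E2 vs TMG stayed within 1.5 times under every setting; with one library left out they were 6549 to 6620 and 6660 to 6822 genes, with 31 to 32 and 32 to 33 of the described genes higher and 11 to 14 and 11 to 15 lower. TMG vs Ctrl had 426 calls, against 675 with the replicate block, 768 with only the groups compared and 196 to 257 with one library left out. Of the described genes 2 were then higher with only the groups compared (Aurka and Kif22), 2 lower with the block (Kif1b and Kif1bp) and 0 to 2 lower with one library left out. TMG_E2 vs E2 had 1055 calls, 539 with only the groups compared and 656 to 1160 with one library left out. There, 1 gene was higher by library size alone and with only the groups compared (Cenpk), 5 by DESeq2, 6 with the block and 1 to 5 with one library left out; 2 were lower by DESeq2 and the block, 3 with no filter and 1 to 2 with one library left out. The interaction had 77 calls, 48 under filterByExpr, 178 with no filter, 171 with the block and 18 to 161 with one library left out, with 1 described gene (Kif21b) lower with no filter. The replicate block moved no other count of the described genes by over 1.5 times; in E2 vs Ctrl it added Kif18a (adjusted p = 0.0281) and Kif20a (0.0393), both higher. In E2 vs Ctrl and TMG vs Ctrl replicate numbers were not taken as pairing, since the lowest correlations (0.0918 and 0.0528) were under 0.1. Yet 6 of 6 and 5 of 6 libraries correlated best with their own number, so pairing there is not excluded. The cause of these shifts was not tested. At this depth 3 counts are 0.133 to 0.180 CPM, a counting limit only, and changes smaller than the stated intervals could not be resolved with 3 libraries a group.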
